A study of Homo sapiens with 12 samples.

Results

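Ribosome biogenesis was described here through 47 genes, chosen by name for their known roles in RNA polymerase I transcription, small nucleolar ribonucleoprotein (snoRNP) function, nucleolar organisation and assembly of the 40S and 60S ribosomal subunits. All 47 were among the 19460 genes of the deposited RNA table, and all 47 passed the filter on low values, which 15869 genes passed. Their values came from T-47D, an established human luminal breast cancer cell line labelled as wild type (WT) for the RNA libraries. Cells received 1 µM palbociclib, an inhibitor of the cyclin-dependent kinases CDK4 and CDK6, or the solvent DMSO (stated as 0.1% for the chromatin libraries), for 24 h. Poly(A) RNA was sequenced in 3 libraries per treatment, and accessible chromatin was sequenced by ATAC-seq, in which the transposase Tn5 cuts open DNA, in another 3 per treatment. The ATAC libraries are stated to come from separate dishes. The RNA labels give replicate numbers only, so p-values for RNA measure the spread between these libraries, which may be technical. All libraries are of 1 cell line.

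RNA polymerase I transcribes the ribosomal RNA precursor in the nucleolus, with the help of UBTF, the selectivity factor SL1 and the initiation factor RRN3. The precursor is modified by box C/D snoRNPs, which guide ribose methylation, and by box H/ACA snoRNPs, which guide pseudouridylation. It is cut and folded by the small subunit processome and by a series of 60S assembly factors. Many of these genes are textbook targets of the transcription factor MYC, and ribosome production is tied to cell growth. Ribosomal RNA itself has no poly(A) tail and was not measured, so every value below is for the messenger RNAs of the machinery.

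RNA levels are FPKM, fragments scaled by gene length and by library, which can be compared between genes. Across genes, the median ratio of each library to the geometric mean of all libraries was 1.003. The deposited values were thus already on a common median scale. Changes are palbociclib minus DMSO on the log2(FPKM + 1) scale, which understates the change of low genes, and a gene passed the test at a limma Benjamini-Hochberg adjusted p under 0.05 over all genes. The proliferation gene MKI67 fell from 30.8 ± 1.27 to 1.62 ± 0.117 FPKM and E2F1 from 31.5 ± 1.03 to 3.34 ± 0.164 FPKM (mean ± SD, n = 3). All 8 luminal epithelial markers were at a mean of at least 1 FPKM, with summed levels of 5419 to 5939 FPKM in DMSO and 7312 to 8084 FPKM in palbociclib libraries. Of 11 markers of basal, stromal, immune and endothelial cells, only 4 had a deposited value, and 2 of these reached 1 FPKM, COL1A1 and VIM. The summed levels of the 4 were 25.3 to 26.1 FPKM in DMSO and 25.9 to 28.6 FPKM in palbociclib libraries.

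Messenger RNAs of the machinery were lower in part and by moderate amounts. Of the 47 genes, 25 fell and 1 rose, against 22.9% of all genes tested that were lower and 20.9% that were higher by the same rule. The median change of the 47 was -0.18 on the log2 scale, and that of all genes tested was 0.00. The common median scale of the libraries holds the latter near 0.00, so it does not show that RNA as a whole was unchanged. Library by library, the median difference of the 47 genes from the DMSO mean was 0.00, -0.02 and 0.03 in the DMSO libraries and -0.18, -0.16 and -0.18 in the palbociclib libraries. The libraries of the treatments did not overlap for 33 of the 47 genes, against 54.7% of all genes tested. No gene changed by 1 or more on the log2 scale, and 11 fell by at least 0.3. FPKM are relative to the other RNAs of a library, so these values do not give RNA per cell, and fewer cells of a type and less RNA per cell cannot be told apart in bulk samples.

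After quantile normalization, 19 of the 47 genes were lower and 6 were higher, and 61.6% of all calls were of higher genes in place of 47.7%. In that setting 2856 of all 15869 genes tested were lower and 4588 higher. The median of all genes tested moved to 0.06, and that of the 47 to -0.10. The authors' deposited table, made with DESeq2, gives 25 of the 47 genes as lower and 1 as higher at an adjusted p under 0.05, where 20.3% and 17.9% of its genes with an adjusted p are lower and higher. All 25 and the 1 were also called here, on the same libraries.

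**Figure D1:**
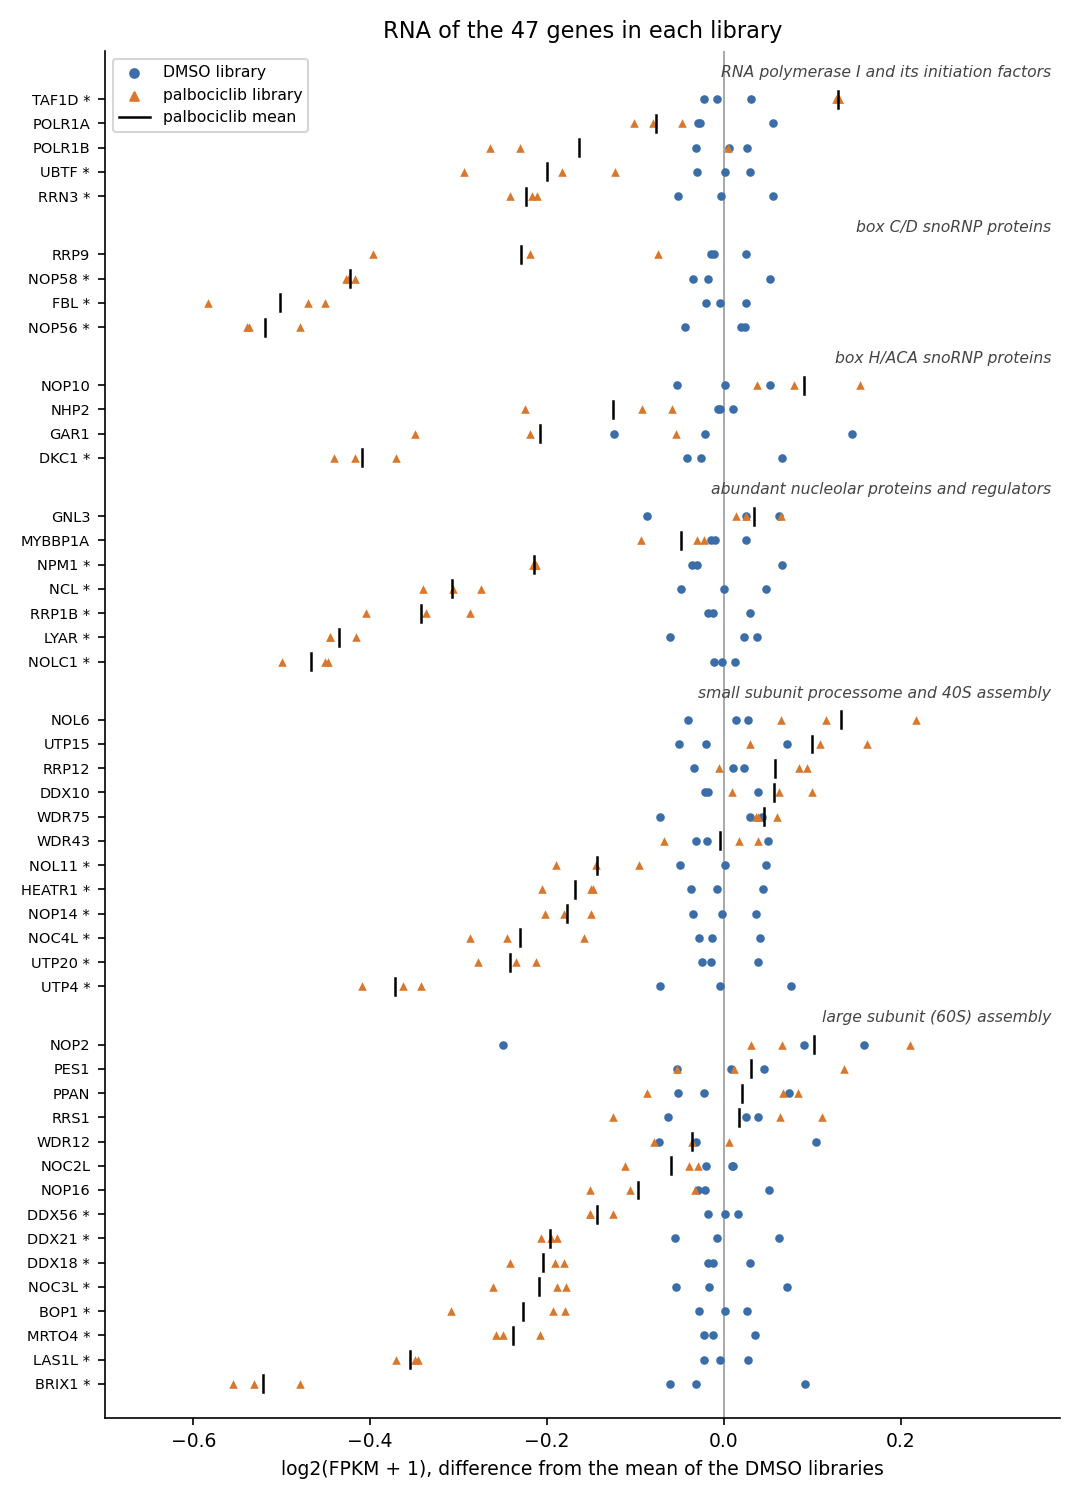
RNA of the 47 genes in each library, as log2(FPKM + 1) minus the mean of the 3 DMSO libraries, by role. Circles are DMSO libraries, triangles palbociclib libraries, black bars the palbociclib mean, and a star marks a gene past the limma threshold. The C/D proteins NOP58, FBL and NOP56 sit farthest to the left as a group. The palbociclib means of UTP15, RRP12, DDX10 and WDR75 lie between 0.00 and 0.10, and that of WDR43 lies just under 0.00.

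Among RNA polymerase I and its initiation factors, RRN3 and UBTF fell, TAF1D rose, and the 2 largest polymerase subunits did not pass the test. POLR1A, the largest catalytic subunit (chr2:86020216-86105886, minus strand), was at 6.47, 6.47 and 6.91 FPKM in DMSO and 6.21, 6.10 and 6.37 FPKM in palbociclib libraries. The groups just missed each other, with a change of -0.08 ± 0.05 (SE) and a limma adjusted p of 0.287. POLR1B, the second largest subunit (chr2:112542036-112579818, plus strand), was at 10.8, 10.4 and 10.7 FPKM and then at 10.7, 8.68 and 8.91 FPKM. Palbociclib replicate 1 lay among the DMSO libraries and the other two lay below them, and the test was not passed (-0.16 ± 0.07, limma adjusted p = 0.108). Without that library it was -0.25, with an adjusted p of 0.0102 by limma.

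RRN3, which recruits the polymerase to the ribosomal DNA promoter (chr16:15060022-15094335, minus strand), was at 30.8, 29.7 and 32.1 FPKM in DMSO and 26.5, 25.95 and 26.4 FPKM in palbociclib libraries. Every palbociclib library was below every DMSO library, and the change was -0.22 ± 0.04 with a limma adjusted p of 0.00213. RRN3 has near-identical pseudogene copies, so the split of reads among them is uncertain. UBTF, the upstream binding factor that keeps ribosomal DNA open (chr17:44205040-44221304, minus strand), was at 46.8, 45.9 and 44.9 FPKM against 40.3, 42.0 and 37.2 FPKM. It fell by 0.20 ± 0.05 on the log2 scale, with a limma adjusted p of 0.00921 and no overlap of the groups.

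TAF1D, a subunit of SL1 (chr11:93730194-93741495, minus strand), was the 1 gene of the 47 that rose. Its level was 104.5, 103.4 and 107.3 FPKM in DMSO and 115.1, 115.1 and 114.8 FPKM in palbociclib libraries. The groups did not overlap, and the change was 0.13 ± 0.03 (limma adjusted p = 0.0065). Of the other SL1 subunits, TAF1A (-0.29), TAF1B (-0.26) and TBP (-0.23) fell and TAF1C (0.14) rose on the log2 scale. None of these 4 calls was stable: TAF1A, TAF1B and TBP did not pass after quantile normalization (limma adjusted p 0.0648, 0.0874 and 0.0935). TAF1A was also lost without DMSO replicate 1, DMSO replicate 3 or palbociclib replicate 1, and TAF1B without DMSO replicate 3, palbociclib replicate 1 or palbociclib replicate 3. TAF1C was lost with no trend of variance on level in limma and without DMSO replicate 2, DMSO replicate 3, palbociclib replicate 1 or palbociclib replicate 2 (limma adjusted p 0.0713 to 0.102).

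**Figure D2:**
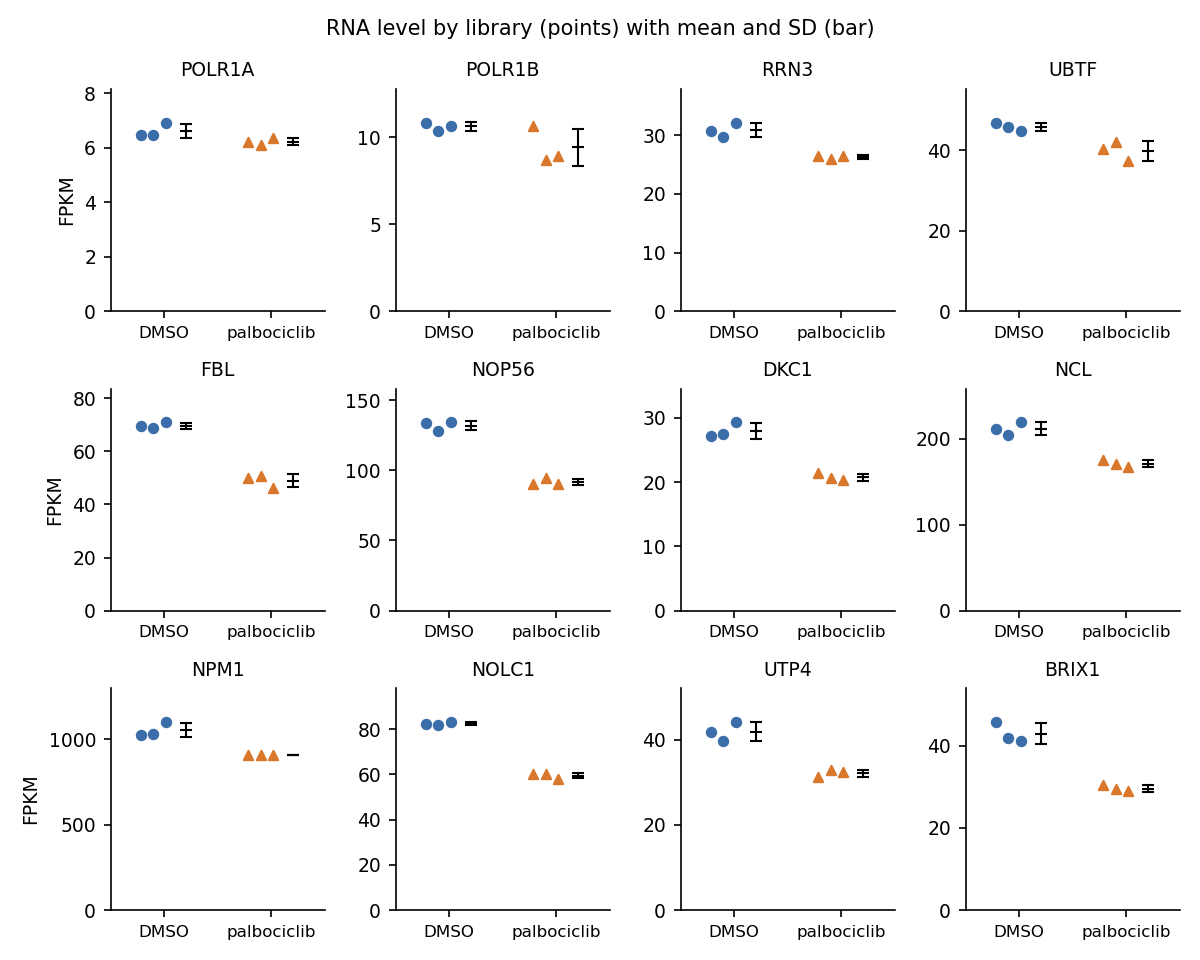
FPKM of 12 genes in each library, with DMSO as circles, palbociclib as triangles, and the mean and SD of 3 libraries as black bars; every vertical axis starts at 0. The DMSO and palbociclib libraries are apart for all genes shown but POLR1B.

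Box C/D snoRNP proteins had the lowest median change of the 6 role groups, -0.46 on the log2 scale, and 3 of 4 fell. Fibrillarin, FBL, is the methyltransferase of the particle (chr19:39834458-39846379, minus strand). Its level was 69.4, 68.6 and 70.9 FPKM in DMSO and 50.0, 50.7 and 46.1 FPKM in palbociclib libraries. The palbociclib mean was 70.3% of the DMSO mean, and the change was -0.50 ± 0.04 with a limma adjusted p of 2.7e-05. NOP56, a scaffold protein of the same particle (chr20:2652632-2658393, plus strand), was at 133.6, 127.9 and 134.1 FPKM and then at 90.5, 94.3 and 90.4 FPKM. The groups were far apart, with a change of -0.52 ± 0.03 and a limma adjusted p of 5.73e-06. Its partner NOP58 fell to 74.1% of its DMSO mean. RRP9, which binds the U3 snoRNP, had 6.63, 6.82 and 6.61 FPKM against 6.30, 5.60 and 4.84 FPKM, the lowest mean level of the 47 genes. Its palbociclib libraries were all lower but spread widely, and the change of -0.23 ± 0.08 missed the threshold (limma adjusted p = 0.0515). RRP9 passed in some alternatives. These were a filter at a mean FPKM of at least 5 (limma adjusted p = 0.0376), the replicate block (0.0494) and leaving out palbociclib replicate 1 (0.0152).

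Box H/ACA proteins moved less evenly, with 1 of 4 past the threshold and a median change of -0.17. Dyskerin, DKC1, is the pseudouridine synthase of these particles and of telomerase (chrX:154762864-154777689, plus strand). It was at 27.1, 27.4 and 29.3 FPKM in DMSO and 21.4, 20.7 and 20.3 FPKM in palbociclib libraries. Those groups did not overlap, and the level was 74.4% of the DMSO mean (change -0.41 ± 0.04, limma adjusted p = 0.00012). The small partner NOP10 had the highest value of the group, with 181.3, 188.0 and 174.6 FPKM against 191.6, 201.8 and 186.0 FPKM. Its groups overlapped, and it did not pass (0.09 ± 0.04, limma adjusted p = 0.106). For GAR1 and NHP2 the changes were -0.21 ± 0.09 and -0.12 ± 0.04, with limma adjusted p values of 0.095 and 0.0508. Without palbociclib replicate 1, both passed, which makes 3 of 4.

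Of the abundant nucleolar proteins and regulators, 5 of 7 fell, with a median change of -0.31. Nucleolin, NCL, which binds ribosomal RNA precursors (chr2:231453531-231464484, minus strand), was at 211.8, 204.9 and 219.1 FPKM in DMSO and 175.0, 171.1 and 167.1 FPKM in palbociclib libraries. Nucleophosmin, NPM1, a histone and ribosome chaperone of the outer nucleolus (chr5:171387116-171410900, plus strand), was the most abundant of the 47. Its level was 1026, 1030 and 1100 FPKM in DMSO and 906.6, 905.3 and 907.4 FPKM in palbociclib libraries. Both genes were lower in every palbociclib library, by 0.31 ± 0.03 for NCL (limma adjusted p = 0.000172) and 0.21 ± 0.03 for NPM1 (0.00141) on the log2 scale. NPM1 has many processed pseudogenes, which makes its assignment of reads uncertain.

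NOLC1, a chaperone that links snoRNPs with RNA polymerase I (chr10:102152389-102163870, plus strand), had 82.3, 81.8 and 83.1 FPKM against 60.0, 60.1 and 58.0 FPKM. Its replicates were tight, and the level was 72.1% of the DMSO mean (change -0.47 ± 0.03, limma adjusted p = 6.03e-06). LYAR, a nucleolar protein of growing cells, fell to 72.1% and RRP1B, which targets a phosphatase to the nucleolus, to 77.0% of their DMSO means. GNL3, or nucleostemin, a nucleolar GTPase of proliferating and stem cells, was at 51.1, 47.2 and 52.5 FPKM in DMSO and 52.6, 51.1 and 50.7 FPKM in palbociclib libraries. Its groups overlapped fully (change 0.03 ± 0.04, limma adjusted p = 0.56). MYBBP1A, a nucleolar MYB-binding protein, also did not pass (-0.05 ± 0.04, limma adjusted p = 0.369).

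The 12 small subunit genes divided into 6 that fell and 6 that did not pass, 5 of the latter with a positive estimate, and the group's median of -0.07 turned to 0.01 after quantile normalization, where 2 were lower and 5 higher. UTP4, UTP15, WDR43, WDR75, HEATR1 and NOL11 belong to the first subcomplex that binds the nascent precursor. UTP4 (chr16:69132649-69169021, plus strand) was at 41.7, 39.8 and 44.2 FPKM in DMSO and 31.3, 32.8 and 32.3 FPKM in palbociclib libraries. It had the largest fall of the 12, to 76.7% of the DMSO mean (change -0.37 ± 0.04, limma adjusted p = 0.000258). In the same subcomplex, HEATR1 (-0.17 ± 0.04) and NOL11 (-0.14 ± 0.04) fell, while UTP15 (0.10 ± 0.05), WDR75 (0.05 ± 0.04) and WDR43 (0.00 ± 0.05) did not pass in the limma fit.

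NOL6, a processome scaffold, was at 8.68, 8.24 and 8.59 FPKM in DMSO and 10.1, 9.30 and 8.94 FPKM in palbociclib libraries. All palbociclib libraries were higher, and the change of 0.13 ± 0.06 missed the threshold (limma adjusted p = 0.0891), though it passed after quantile normalization (0.23, adjusted p = 0.0114). NOP14 and its partner NOC4L, which act in 40S maturation, fell by 0.18 ± 0.04 and 0.23 ± 0.05, and the long scaffold UTP20 by 0.24 ± 0.05. The helicase DDX10 (0.06 ± 0.04) and the export factor RRP12 (0.06 ± 0.04) did not pass. An antisense gene overlaps NOP14, and the counting strand is not given in the sources used here, so reads of that pair cannot be told apart. After quantile normalization the calls of HEATR1, NOL11, NOP14 and NOC4L were lost, at limma adjusted p values of 0.175, 0.102, 0.0812 and 0.0505, while UTP15, WDR75, NOL6, DDX10 and RRP12 passed as higher. NOL11 was also lost without any 1 of 4 libraries, and HEATR1 without DMSO replicate 1.

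Large subunit assembly genes fell in 8 of 15 cases, with a median change of -0.14, and none rose. BRIX1, which helps to shape the early 60S particle (chr5:34915711-34925996, plus strand), had the largest fall of the 47. Its level was 45.8, 41.9 and 41.1 FPKM in DMSO and 30.5, 29.4 and 28.9 FPKM in palbociclib libraries. The palbociclib mean was 68.9% of the DMSO mean (change -0.52 ± 0.05, limma adjusted p = 4.91e-05). LAS1L, the endonuclease subunit that cuts the second internal spacer, fell to 76.8%, and MRTO4, an early placeholder for the ribosomal stalk, to 84.0% of their DMSO means. The helicases DDX18, DDX21 and DDX56 fell by 0.20, 0.20 and 0.14 on the log2 scale. NOC3L fell by 0.21, and its partner NOC2L did not pass (-0.06 ± 0.04, limma adjusted p = 0.217).

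BOP1, PES1 and WDR12 form 1 complex that is needed to process the 60S precursor. BOP1 was at 14.7, 14.4 and 15.0 FPKM in DMSO and 11.7, 12.9 and 12.7 FPKM in palbociclib libraries, without overlap (change -0.23 ± 0.05, limma adjusted p = 0.00636). PES1 (0.03 ± 0.05, limma adjusted p = 0.675) and WDR12 (-0.04 ± 0.05, 0.618) overlapped between treatments. The methyltransferase NOP2 had the highest estimate of the 15 with 8.18, 10.6 and 11.2 FPKM against 10.1, 10.4 and 11.6 FPKM. Its DMSO replicate 1 stood below the rest, and its SE was as large as its estimate (0.10 ± 0.11, limma adjusted p = 0.466). NOP16, RRS1 and PPAN did not pass either; PPAN shares exons with a readthrough transcript, so its reads are uncertain. The calls of BOP1 and NOC3L were lost after quantile normalization (limma adjusted p 0.0645 and 0.102).

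NPM1 and NCL, the most abundant of the genes, fell by 0.21 and 0.31 on the log2 scale, and NOP56, also abundant, fell by 0.52. Across the 47 genes, the Spearman correlation between mean FPKM and log2 change was -0.10, a description over genes that share the same libraries. Of the 47 genes, 10 hold small nucleolar RNA genes inside their span in RefSeq, 34 in all. TAF1D holds 8, NOP56 and GNL3 hold 5 each, and NOP58 holds 4. Of these 10 hosts, 6 fell and 1 rose, with a median change of -0.19, against 19 that fell among the other 37, with a median of -0.18. Hosts thus included the gene that rose as well as one of the largest falls.

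Other genes of the pathway, 160 in 7 lists, all passed the filter. Of these, 60 fell and 17 rose, with a median change of -0.10, and after quantile normalization the counts were 46 and 31. Without palbociclib replicate 1, 10 rose. These lists were set up by function and share no gene with the 47, but they come from the same libraries.

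RNA polymerase I itself was represented by 12 more genes, of which 7 fell and 2 rose. TCOF1, or treacle, which holds the polymerase at ribosomal DNA, was at 23.9, 23.4 and 22.8 FPKM in DMSO and 10.7, 11.2 and 10.4 FPKM in palbociclib libraries. Its level was 46.2% of the DMSO mean, a larger change (-1.05 ± 0.04, limma adjusted p = 3.64e-07) than that of any of the 47 genes. The subunits POLR1E (-0.70) and POLR1G (-0.64) also fell. POLR1C, which RNA polymerase III shares, rose by 0.19 ± 0.06 (limma adjusted p = 0.0378), a call lost with no trend and without any 1 of the libraries other than DMSO replicate 3, with adjusted p values from 0.0635 to 0.113. The other gene that rose was TAF1C, so none of the 12 was higher with no trend or without DMSO replicate 2, palbociclib replicate 1 or palbociclib replicate 2, and 1 was without any other 1 library. After quantile normalization, 4 of these 12 genes were lower and 3 higher.

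RNA polymerase III makes the 5S ribosomal RNA and transfer RNAs, and 11 of its 22 genes fell and 1 rose, against 8 lower and 6 higher after quantile normalization. Without DMSO replicate 3, 2 were higher. POLR3K, a small subunit of the enzyme, had the largest fall (-0.46 ± 0.05, limma adjusted p = 9.25e-05), and POLR3E rose (0.21 ± 0.05, 0.00675). Among 11 genes for snoRNP assembly, 10 fell and none rose, with PIH1D1 lowest (-0.49 ± 0.09, limma adjusted p = 0.00233) and the H/ACA chaperones SHQ1 (-0.45) and NAF1 (-0.37) among them. ZNHIT6 alone did not pass (0.06 ± 0.06).

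The RNA exosome trims ribosomal RNA precursors from their 3′ ends, and 8 of 16 genes of that list fell while none was higher, against 7 lower and 2 higher after quantile normalization, and 1 was higher with the replicate block. All 8 that fell encode exosome subunits. EXOSC2 was at 36.7, 38.3 and 37.5 FPKM in DMSO and 18.8, 20.5 and 20.6 FPKM in palbociclib libraries, a change of -0.88 ± 0.05 (limma adjusted p = 1.44e-06). EXOSC8 (-0.86) and EXOSC9 (-0.73) were close to it, and EXOSC10, a nuclear catalytic subunit, fell least of the 8 (-0.18).

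Further subunit assembly factors were counted next. Of 40 more small subunit genes, 7 fell and 3 rose, a share of 17.5% lower that is under the 22.9% of all genes tested, and their median of -0.07 turned to 0.01 after quantile normalization, where 6 were lower and 6 higher. EMG1, a ribosomal RNA methyltransferase, fell most (-0.46 ± 0.07, limma adjusted p = 0.00102), and NOB1, the nuclease that finishes 18S ribosomal RNA, rose by 0.16 ± 0.05 (0.0267), a call lost without any 1 of 4 libraries (adjusted p 0.0583 to 0.0933). None of these 40 was higher without DMSO replicate 1 or without palbociclib replicate 1, and 1 was without palbociclib replicate 2. Of 44 more large subunit genes, 13 fell and 4 rose. PELP1, a partner of LAS1L, fell by 0.45 ± 0.07 (limma adjusted p = 0.00145) and NOP53 rose by 0.30 ± 0.04 (0.000293).

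Non-coding host genes of small nucleolar RNAs were the list with more rises than falls, 7 against 4 of 15. EPB41L4A-AS1 rose from 22.5, 22.1 and 20.1 to 29.4, 32.5 and 34.5 FPKM (0.55 ± 0.07, limma adjusted p = 0.000227), and GAS5 by 0.43. SNHG17 fell by 0.36 ± 0.05 (0.000852).

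**Figure D3:**
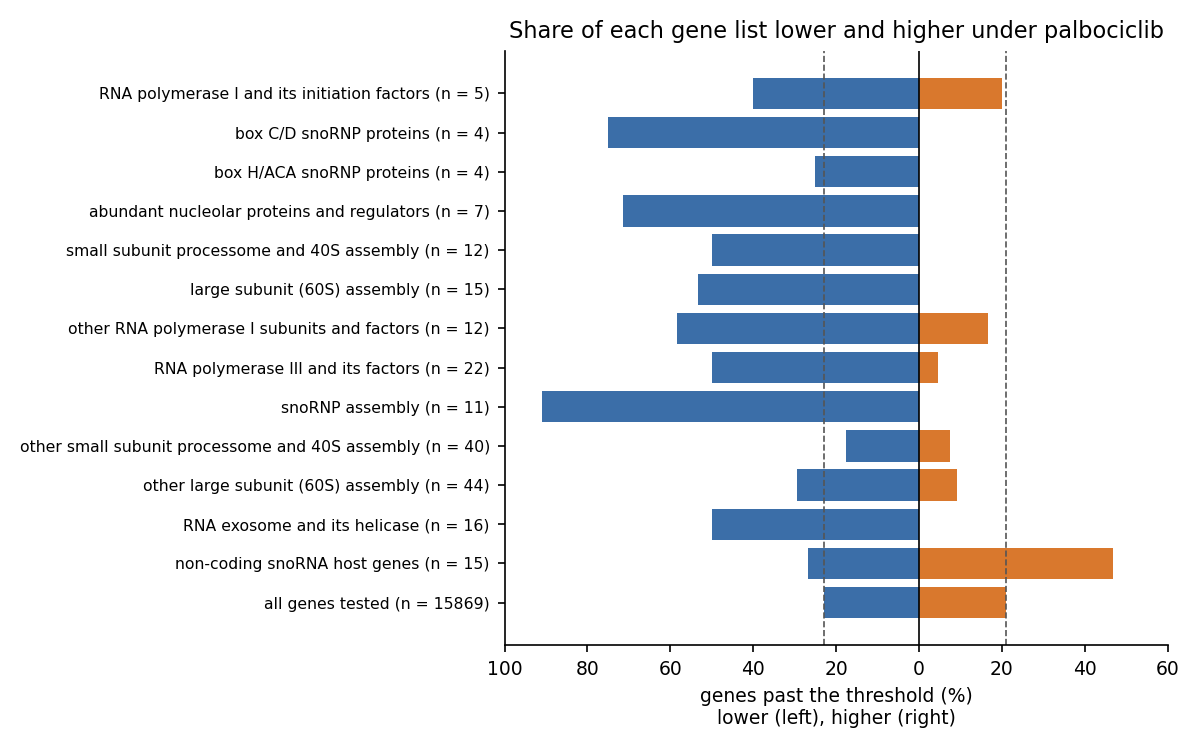
Share of the genes of each list that were lower (bars to the left) or higher (bars to the right) in palbociclib than in DMSO libraries at a limma adjusted p under 0.05; dashed lines mark the shares of all genes tested, 22.9% and 20.9%. The snoRNP assembly list reaches farthest to the left, and the non-coding host list farthest to the right.

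MYC, the transcription factor known to drive many of these genes, was slightly higher. Its level was 19.2, 19.8 and 20.1 FPKM in DMSO and 22.7, 20.8 and 21.7 FPKM in palbociclib libraries. The groups did not overlap, and MYC rose by 0.14 ± 0.04 (limma adjusted p = 0.0355). Without DMSO replicate 1, DMSO replicate 2, palbociclib replicate 1 or palbociclib replicate 3 the adjusted p of the limma fit ranged from 0.0704 to 0.117. With all 6 libraries it was 0.0574 with no trend and 0.051 with the replicate block, so the call depends on single libraries and on the fit. Of 11 tested factors of the MYC network, 5 rose and 2 fell. Both MXD3 (-2.15 ± 0.06) and MXD4 (0.80 ± 0.06) encode partners of MAX that oppose MYC, and they moved in opposite directions.

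ATAC-seq showed 1 changed promoter among these genes. A start could be placed for 46 of the 47 genes, and 26 of them had a peak of the authors' set of 38121 overlapping 1 kb to either side of it, 1 each. Only the peak of NOLC1 was lower by the edgeR quasi-likelihood test at an adjusted p under 0.05, and none was higher. Of all 38121 peaks, 6.46% were lower and 5.41% were higher. Of the 7248 peaks within 1 kb of a start, 11.4% were lower and 1.78% were higher by the same rule, and the libraries did not overlap for 30.1% of them, against 5 of the 26. The 26 peaks had a median change of -0.04 on the log2 scale, against -0.05 for all peaks near starts, and 21 of the 26 had a negative estimate, 80.8% against 66.9%. Of the 26 peaks, 12 also lie within 1 kb of another gene's start, so they may belong to either gene. At the 20 other placed starts, which include NOP56, NOP58, DKC1, NCL, NPM1, UBTF and POLR1B, no peak of the set lay in the window, which says nothing of their accessibility below the authors' peak threshold.

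The NOLC1 peak spans chr10:102151800-102152806 on GRCh38 and contains the start of the gene at position 102152389, with no other placed start within 1 kb. Its normalised counts (CPM, scaled by library) were 199.5, 195.3 and 209.1 in DMSO and 147.9, 150.9 and 139.3 in palbociclib libraries, from 1956 to 3559 reads per library. Each palbociclib library was well below each DMSO library, and the change was -0.46 on the log2 scale (edgeR adjusted p = 8.23e-12). The RNA of NOLC1 fell by 0.47. Both the peak and the RNA were lower, in separate sets of libraries.

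The next lowest peaks did not pass. That of UTP15 (chr5:73565191-73566087), which lies within 1 kb of the start of ANKRA2, had 70.7, 66.8 and 70.8 CPM against 62.3, 65.6 and 59.0, with a change of -0.15 and an edgeR adjusted p of 0.0839. That of NOP2 (chr12:6567836-6568679) had a change of -0.19 and an adjusted p of 0.224 by edgeR. FBL and BRIX1, whose RNA fell by 0.50 and 0.52, had peak changes of -0.10 and -0.06 (edgeR adjusted p 0.465 and 0.52). LAS1L, whose RNA fell by 0.36, had the highest peak estimate, 0.08. Across the 26 genes the Spearman correlation of RNA and peak change was -0.11, and -0.23 without NOLC1, as a description. In simulated counts, with 200 of all peaks changed, the test found 89.6% of peaks changed by 0.5 and 13.6% of those changed by 0.25. Many more peaks passed in the data, which loosens the adjusted threshold, so these shares do not give the power there. Small promoter changes may still have been missed.

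**Figure D4:**
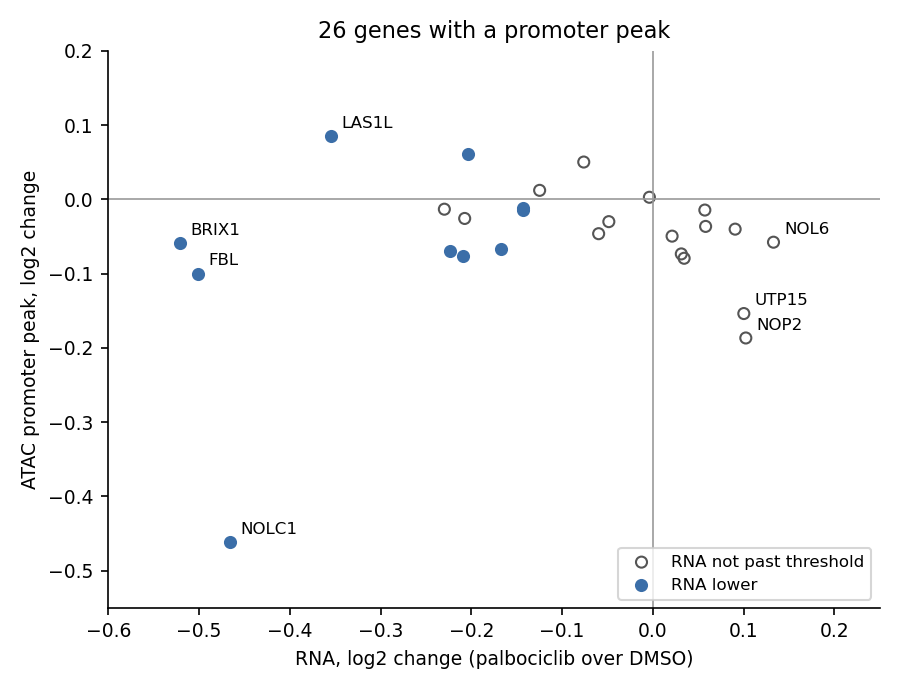
Change of RNA (horizontal axis) and of the promoter ATAC peak (vertical axis), both on the log2 scale, for the 26 genes with such a peak; filled points are genes whose RNA was lower by limma, open points did not pass. NOLC1 stands alone at the lower left, and FBL and BRIX1 lie to the left with peak changes of -0.10 and -0.06.

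RefSeq windows of the 250 bases before a start (GRCh38.p14) were available for 40 of the 47 genes, 49 windows in all since 9 genes have 2 starts. They were searched on both strands for the E-box CACGTG that MYC and MAX bind, for the E2F forms TTTCCCGC, TTTGGCGC, TTTCGCGC and TTTGCCGC, and for the palindrome that NRF1 binds. The E-box was in 5 of 49 windows (10.2%), against 6.34% of all 35116 windows. An E2F form was in 2 (4.08% against 2.79%), of PES1 and UTP15, and the NRF1 palindrome in 3 (6.12% against 1.03%), of DDX10, DKC1 and MYBBP1A. These are matches of letters and not binding sites, and with so few windows no difference in share was tested. The stretches around the E-boxes are shown because MYC is the factor most often tied to this gene set. They were chosen after the matches were seen, each on the strand of its gene with the E-box in capitals.
DDX21, chr10:68956596-68956641, plus strand: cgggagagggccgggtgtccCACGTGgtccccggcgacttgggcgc
LYAR, chr4:4290060-4290105, minus strand: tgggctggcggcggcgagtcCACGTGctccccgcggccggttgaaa
NOP10, chr15:34343137-34343167, minus strand: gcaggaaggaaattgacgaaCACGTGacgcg
UTP20, chr12:101280075-101280104, plus strand: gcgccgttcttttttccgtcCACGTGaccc
UTP4, chr16:69132613-69132648, plus strand: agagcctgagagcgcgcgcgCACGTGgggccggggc

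In these windows the E-box begins 31 bases before the start that the window precedes in DDX21, 64 in LYAR, 11 in NOP10, 10 in UTP20 and 16 in UTP4. For DDX21 and LYAR that start is an inner one. Their gene spans begin farther upstream, at chr10:68956170 and chr4:4290154, so both printed stretches lie inside the gene. A second E-box lies 170 bases before the start of NOP10. Of these 5 genes, DDX21, LYAR, UTP20 and UTP4 fell by 0.20, 0.44, 0.24 and 0.37, and NOP10 did not pass (0.09). Of all 47 genes, 53.2% fell, and a link between the E-box and RNA change was not tested. Only NOP10 had a promoter peak, chr15:34342750-34343481, which covers the printed stretch and did not pass (change -0.04, edgeR adjusted p = 0.795).

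The upstream windows of genes at both ends of the range of RNA change are shown for contrast, as far as no other protein-coding gene spans them. That of BRIX1 lies within RAD1 and TTC23L and is not shown, and 1 non-coding gene overlaps each of those of NOP56 and NOL6. None of the windows shown holds any of the 3 motifs. NOP56 stands for the largest falls, and TAF1D and NOL6 for the highest estimates.
NOP56, chr20:2652382-2652631, plus strand: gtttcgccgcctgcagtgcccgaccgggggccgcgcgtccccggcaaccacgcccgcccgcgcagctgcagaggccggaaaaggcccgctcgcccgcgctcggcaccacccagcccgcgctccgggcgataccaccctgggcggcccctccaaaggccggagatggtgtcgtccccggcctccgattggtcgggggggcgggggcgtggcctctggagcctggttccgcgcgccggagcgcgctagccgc
TAF1D, chr11:93741496-93741671, minus strand: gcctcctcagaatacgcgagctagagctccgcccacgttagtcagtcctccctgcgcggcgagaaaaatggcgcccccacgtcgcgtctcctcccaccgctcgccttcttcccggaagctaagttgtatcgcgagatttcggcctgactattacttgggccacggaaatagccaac
NOL6, chr9:33473925-33474174, minus strand: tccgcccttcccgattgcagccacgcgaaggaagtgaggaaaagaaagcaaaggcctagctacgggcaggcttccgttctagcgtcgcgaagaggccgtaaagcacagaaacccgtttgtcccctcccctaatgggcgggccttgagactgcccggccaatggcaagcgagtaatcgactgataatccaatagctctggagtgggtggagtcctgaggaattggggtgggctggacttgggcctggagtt

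The full windows differ in base composition, with 78.0% G and C in NOP56, 58.4% in TAF1D and 58.0% in NOL6. The NOL6 window lies inside its promoter peak, chr9:33473632-33474218, whose change was -0.06 (edgeR adjusted p = 0.589).

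Splicing was read from the same 6 RNA libraries, as counts of reads that include or skip a stretch. The tables list 559 events in the 47 genes, and 130 events in 32 of the genes passed the filters. Of these, 2 had higher and 0 lower inclusion by the edgeR quasi-likelihood test at an adjusted p under 0.05, against 0.246% and 0.104% of all 37445 events tested. At an unadjusted p under 0.05 there were 13 of the 130 events (10.0%, against 8.53% of all events), 10 of them with higher inclusion, and limma on log2 odds called 0. Both called events are retained introns, a type in which 1.1% of all 4565 events had higher inclusion. Of 29 retained introns tested in 17 of these genes, 23 had a positive estimate, 79.3% against 49.9% of all retained introns tested. The libraries did not overlap for 11, against 16.4% of all, and 9 of the 11 were higher with palbociclib, 31.0% of the 29 against 8.83% of all. They are not independent, since events of 1 gene share reads.

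The first is an intron of NOP56, chr20:2657219-2657928 (710 bases), with no small nucleolar RNA gene inside. Its inclusion level, the length-scaled share of reads that keep the intron, was 0.130, 0.137 and 0.141 in DMSO and 0.163, 0.176 and 0.180 in palbociclib libraries. The groups did not overlap (difference 0.04, edgeR adjusted p = 0.00687). Reads that include it numbered 1982, 2513 and 1795 and then 1825, 2106 and 2256, and reads that skip it 1625, 1941 and 1333 and then 1146, 1208 and 1254. The include counts overlapped between treatments, and the skip counts were lower in every palbociclib library. An alternative exon, chr20:2657373-2657488, lies inside this intron, so some of the counted intron reads may belong to it. Its own inclusion was 0.050, 0.064 and 0.074 against 0.072, 0.074 and 0.084 (edgeR adjusted p = 0.502). The call on the intron was lost without DMSO replicate 1 (edgeR adjusted p = 0.0655) and without palbociclib replicate 2 (0.054). It was also lost without the filter on the minor form (edgeR adjusted p = 0.0537) and with limma on log2 odds (adjusted p = 0.467).

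The second is an intron of NOC3L, chr10:94357332-94358082 (751 bases), at levels of 0.026, 0.020 and 0.039 in DMSO and 0.053, 0.067 and 0.073 in palbociclib libraries. The levels did not overlap (difference 0.04, edgeR adjusted p = 0.0127), but they rest on 36 to 129 reads that include the intron in each library. Leaving out DMSO replicate 1, DMSO replicate 2, palbociclib replicate 2 or palbociclib replicate 3 ended the call, with edgeR adjusted p values of 0.079, 0.106, 0.054 and 0.0712. With reads across the intron's ends only, an alternative added after seeing the data, the adjusted p was 0.102.

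TAF1D has an intron just short of the threshold, chr11:93730713-93731149 (437 bases), which contains the small nucleolar RNA gene SNORA32. Its levels were 0.217, 0.235 and 0.222 against 0.287, 0.256 and 0.295, without overlap (difference 0.05, edgeR adjusted p = 0.0555). With end-spanning reads only, the adjusted p was 0.0261 by edgeR, and in that setting the NOP56 intron was called as well. RNA of TAF1D as a whole rose, while that of NOP56 and NOC3L fell, so higher inclusion went with both directions of RNA level.

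**Figure D5:**
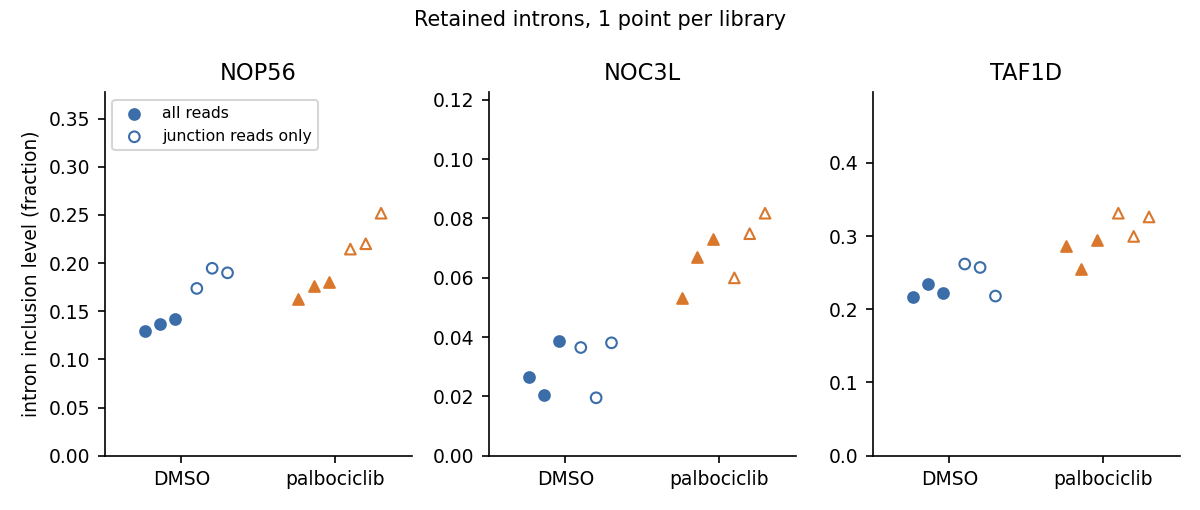
Inclusion level of 3 retained introns in each library, from all reads (filled) and from reads across the intron's ends only (open), with DMSO as circles and palbociclib as triangles. From all reads, the palbociclib libraries lie above the DMSO libraries for NOP56, NOC3L and TAF1D.

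Other events of the main factors did not pass. An exon of RRN3, chr16:15086365-15086454, was included at 0.556, 0.625 and 0.657 in DMSO and 0.695, 0.675 and 0.837 in palbociclib libraries (edgeR adjusted p = 0.287). An exon of UBTF, chr17:44208619-44209001, was included at 0.125, 0.123 and 0.110 against 0.166, 0.171 and 0.132 (edgeR adjusted p = 0.397). In both exons every palbociclib library was above every DMSO library, but neither passed after adjustment over all events of its type. In simulated data, changes were put only into retained introns with many reads and with neither form rare. There the test found 21.0% of those changed by 1 in log2 odds and 93.0% of those changed by 2. The spread between simulated libraries was a fixed setting and not taken from the data, so these shares do not give the power in the data. Smaller changes, and changes in introns with few reads or a rare form, were not simulated.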

How the data were processed

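The members and gene lists were chosen by name with earlier results of these data known. Groups and replicates came from the labels. The authors deposited FPKM per gene and library. Per the submitters' processing notes, fastp 0.23.2, Salmon 1.10.2, STAR 2.7.10b, SAMtools 1.16 and DESeq2 1.44.0 were used with GRCh38. The reads behind an FPKM of a single library are unknown, and depth is given only as a mean per gene over the libraries. The authors' deposited DESeq2 table gives a mean normalized count (a signal value), a log2 fold change, its error, a Wald statistic (a score) and p-values, as its header names them; this table is the authors' own. The splicing tables of the authors hold inclusion and skipping reads, inclusion levels and p-values, with names of the rMATS program in their headers. ATAC counts per peak were deposited by the authors, made with featureCounts over 1 peak set, per the file headers; the notes name Bowtie2 2.5.4-6, Picard 3.4.0-0 and MACS3 3.0.3-0. Totals in peaks were 12830062 to 18250496 per library, and the command names no option to count pairs, so they were taken as reads.

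RNA was tested with limma 3.58.1 (intensity trend) on log2(FPKM + 1) where a gene averaged 0.5 FPKM or more. Peaks were tested with the edgeR 4.0.16 quasi-likelihood test after TMM scaling and filterByExpr, which removed 0 peaks. Splicing events averaging 20 or more reads in a library, with 5% or more in the rarer form, were tested per type with edgeR, with a term per library and a form-by-treatment term; tests were tried on simulated data. Starts came from RefSeq promoter windows or, for 6 members, gene spans with strand from the splicing tables. Named genes were all members, with library values for POLR1A, POLR1B, RRN3, UBTF, FBL, DKC1, NCL, NPM1 and the lowest and highest of each role group, members with a changed peak or event, and the lowest and highest called gene of each other list; other genes named, or given library values, were added after their values were seen. Alternatives were another pseudocount, filters, quantile normalization, no trend, DESeq2 1.42.0, other scalings, a 5 kb window, a replicate block and leaving out each library. The labels name no batch.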

Additional observations from a re-analysis of the deposited data

How the results depend on the processing

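Of the 26 calls among the 47 genes, 20 held in all 12 RNA alternatives and 6 were lost in at least 1; 10 further genes passed in at least 1. Leaving out 1 library at a time gave 24 to 28 lower and 1 higher of the 47, a median change of -0.19 to -0.15, and 53 to 58 lower and 10 to 16 higher of the 160 other genes. Quantile normalization gave 6 higher members, a median of -0.10 and 31 higher other genes. It also moved the median of all genes tested from 0.00 to 0.06. The cause was not tested. The replicate block, on numbers that the labels do not pair, gave 2 higher members, called TAF1D's intron (edgeR adjusted p = 0.0325) and no other new event. Deviations of same-numbered libraries correlated at 0.11, -0.01 and 0.09 (RNA) and at 0.01, 0.04 and -0.03 (ATAC), and not every library correlated best with its own number. The NOLC1 peak stayed the 1 lower and no higher promoter peak in every ATAC alternative, also within 5 kb (28 peaks of 26 genes). Member events with higher inclusion numbered 1 without the filter on the minor form, 0 with limma on log2 odds, and 0 to 2 without 1 library; none had lower inclusion in any alternative run. The simulated RNA test, with 200 genes of higher level changed, found 53.0% of changes of 0.25. Many more genes passed in the data, which loosens the adjusted threshold, so this share does not give the power there. Falls of that size may still be missed.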

Other observations

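The authors' deposited table gives false discovery rates under 0.05 for 5 splicing events of these genes. For the NOP56 intron it gives 0.0299, larger than the edgeR adjusted p of 0.00687. For the other four the value in the authors' deposited table is smaller than that of edgeR: for the NOC3L intron it gives 8.64e-07, for the TAF1D intron 0.0389, for an intron of DKC1 0.0391 and for an exon of POLR1B 0.0337. The DKC1 intron, chrX:154775274-154776186, had inclusion levels of 0.018, 0.027 and 0.017 in DMSO and 0.029, 0.030 and 0.030 in palbociclib libraries, without overlap (edgeR adjusted p = 0.206). An intron of NPM1, chr5:171405404-171406396, had levels of 0.059, 0.058 and 0.063 against 0.069, 0.070 and 0.071 (edgeR adjusted p = 0.205), and an exon of NPM1 that begins where this intron ends, chr5:171406397-171407161, had 0.064, 0.063 and 0.064 against 0.056, 0.057 and 0.055 (0.329).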
